A study of Bos indicus with 5 samples.

Results

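The genes described here are 44 cell cycle and DNA replication genes in the ampulla, the wide part of the bovine oviduct on the side of the ovary. They were found by gene symbol in a table of normalized read counts that holds 24616 genes, of which 19971 carry a symbol. Of the 44 symbols, 42 had a row: 16 of 17 genes of DNA replication and the entry into S phase, and 26 of 27 genes of mitosis. CENPA had no row under its symbol. CDC45 was listed only under its older symbol, CDC45L, and is given separately. All animals were multiparous Nelore cows that carried a progesterone device of 1 g and received 2 mg of estradiol benzoate at its insertion on day -10, prostaglandin F2α at its removal, and GnRH on day 0 to induce ovulation. In the LF/LCL group (large follicle and large corpus luteum) prostaglandin was also given on day -10 and the device was removed 42 h before GnRH. In the SF/SCL group (small follicle and small corpus luteum) the device was removed 30 h before GnRH. Oviduct was collected on day 4, and the ampulla libraries numbered 2 for LF/LCL and 3 for SF/SCL, each from a different cow. The sequenced cows were chosen by the study as those with the most divergent follicle size, corpus luteum size and steroid concentrations, so they are not a random sample of each treatment, and the study left out 1 further LF/LCL library. The tissue was the whole wall of the ampulla, with epithelium, stroma, muscle and blood cells together, so that fewer cells of a type and less RNA per cell cannot be told apart in any value below.

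Cells that divide copy their DNA in S phase and separate the copies in mitosis, and each step uses its own set of genes. Replication genes make nucleotides, load and run the MCM helicase, and hold polymerases on DNA through the PCNA clamp, and E2F transcription factors switch many of them on at the end of G1. Mitotic genes encode cyclin B with CDK1, the Aurora and Polo kinases, kinetochore and spindle proteins, and the ubiquitin enzymes that start anaphase, and many of them are switched on later by FOXM1 and related factors. Several replication proteins also serve DNA repair in cells that do not divide, whereas MKI67 and TOP2A are widely used as marks of dividing cells. In the oviduct, secretory and ciliated cells of the epithelium respond to estradiol and progesterone around ovulation.

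The question asked of these genes was whether the 2 hormonal groups differed in them, and whether genes of S phase and genes of mitosis did so alike. The recovered depth was 13418278 to 19592174 reads per library, and the 42 genes together took 0.047% to 0.0624% of the reads of a library. Marker genes of the tissue were present in every library. OVGP1, the oviductal glycoprotein of secretory cells, and FOXJ1, the main regulator of motile cilia, had the highest mean of their marker lists. These means over the libraries were not corrected for length. Values below are normalized reads, which are read counts divided by 1 size factor per library. They are given in the order of replicates, LF/LCL 1 and 2 and then SF/SCL 1, 2 and 3. A fold change is LF/LCL over SF/SCL on the scale of log2(normalized reads + 1), with its standard error from limma. Among genes with few reads it was larger than that of DESeq2 in some, such as CCNB1 (1.24 against 0.76). In others, such as CDC6, it was smaller (1.96 against 2.33). Each library is 1 cow. An error starts from the spread of these 5 libraries within their groups, which limma moderates toward a trend over all genes.

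None of the 42 genes passed the test, although 35 of them had a log2 fold change above 0. All 42 had a mean above 5 normalized reads and were tested, and CDC6 and TTK passed that filter only through LF/LCL, with SF/SCL means of 2.098 ± 1.04 and 4.54 ± 2.38 (SD, n = 3). By limma, with Benjamini-Hochberg adjustment over the 15815 genes tested and a threshold of 0.05, 0 of the 42 were called, and the smallest adjusted p was 0.344, for CENPF. The background was the same, with 0% of all genes called by limma and 0% by the edgeR quasi-likelihood test. DESeq2 called 2.89% of all genes and 0 of the 42, and its smallest adjusted p among them was 0.0608, for TOP2A. At an unadjusted limma p under 0.05 there were 9 genes, each higher in LF/LCL, and at the same threshold 5.64% of all genes were higher and 5.86% lower in LF/LCL than in SF/SCL. The 9 were RRM2, CDC6, MCM6 and E2F1 of the replication genes and AURKA, UBE2C, CENPF, TOP2A and MKI67 of the mitotic genes. The share with a fold change above 0 was 35 of 42, against 50.8% of all genes tested. In 17 of the 42 both LF/LCL libraries lay above all 3 SF/SCL libraries, against 15% of all genes. Only CCNE2 had the opposite order, which 15.1% of all genes had. The filter fixed the direction of CDC6 and TTK, and both are among the 35. CDC6 is also among the 9 and the 17. The list was proposed with results of these libraries known, so these counts are a description.

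**Figure D1:**
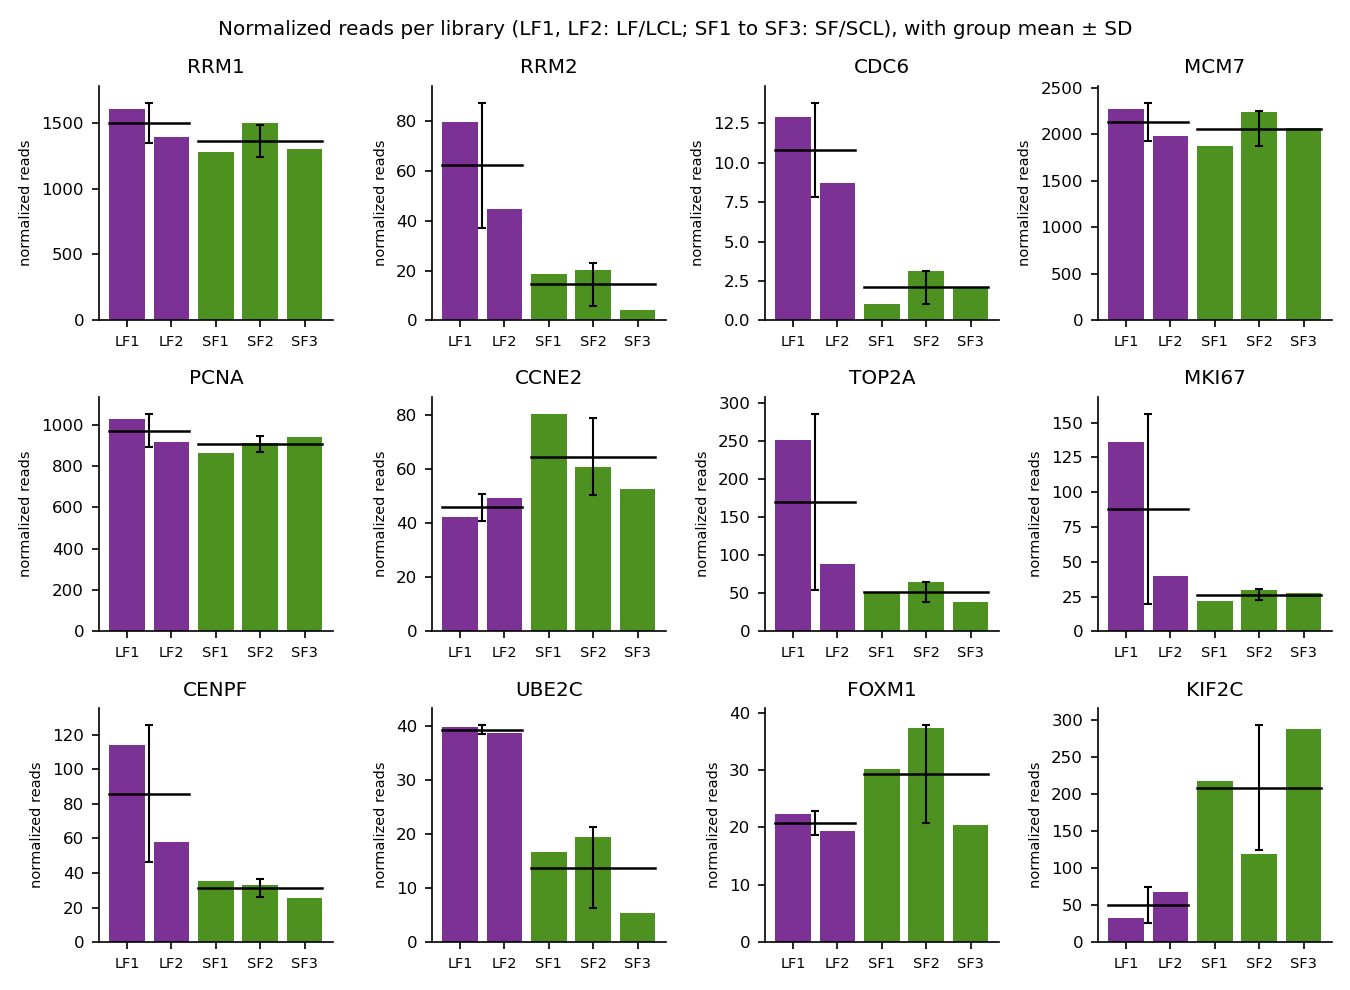
Normalized reads (vertical axes, from 0) of 12 cell cycle genes in each library, with bars for the libraries of LF/LCL (LF1 and LF2) and SF/SCL (SF1, SF2 and SF3) and black lines for the group means ± SD. RRM2, CDC6, TOP2A, MKI67, CENPF and UBE2C are higher in both LF/LCL libraries than in every SF/SCL library, RRM1, MCM7 and PCNA overlap with fold changes near 0, CCNE2 and KIF2C have the opposite order, and FOXM1 overlaps between the groups.

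Of the 3 genes of nucleotide supply, RRM2 had no overlap between the groups, and RRM1 and TYMS overlapped. RRM2, the regulated small subunit of ribonucleotide reductase, the enzyme that makes deoxynucleotides, had 79.7 and 44.5 normalized reads in LF/LCL, compared with 18.7, 20.2 and 4.29 in SF/SCL. Both LF/LCL libraries were above every SF/SCL library, as in 15% of all genes tested, and SF/SCL 3 was far below the rest. Its log2 fold change of 2.22 ± 0.74 was the highest of the 42, with an adjusted p of 0.362 by limma and 0.126 by DESeq2. RRM1, the large subunit of the same enzyme, had 1602 and 1389.9 normalized reads in LF/LCL, compared with 1278, 1496 and 1302 in SF/SCL, with a log2 fold change of 0.14 ± 0.12. Its highest SF/SCL library lay between both LF/LCL libraries. For every 100 reads of RRM1 there were 4.98 and 3.20 reads of RRM2 in LF/LCL, compared with 1.46, 1.35 and 0.33 in SF/SCL, a ratio of reads that was not corrected for gene length. TYMS, thymidylate synthase, was high in LF/LCL 1 alone, with 576 normalized reads against 354 to 465 in the other 4 libraries, and its log2 fold change was 0.20 ± 0.24.

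The MCM helicase genes, which encode the 6 subunits of the ring that unwinds DNA at the fork, had small fold changes. MCM6 had the smallest p of the 6, with 589 and 505 normalized reads in LF/LCL against 454, 379 and 439 in SF/SCL and a log2 fold change of 0.37 ± 0.15 (adjusted p = 0.427, limma). MCM5 (0.45 ± 0.21) and MCM3 (0.30 ± 0.14) also had both LF/LCL libraries above all SF/SCL libraries, an order that 15% of all genes tested had. MCM2 (0.30 ± 0.18), MCM7 (0.05 ± 0.12) and MCM4 (-0.12 ± 0.20) overlapped between the groups. MCM7 had the most reads of the 42 genes, 1872 to 2272 per library, and the 95% interval of its log2 fold change was -0.25 to 0.34. Since the subunits form 1 complex, they are set side by side here only as fold changes, because levels of different genes were not corrected for length.

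The loaders of the helicase differed from the helicase itself in how few reads they had. CDC6, which brings the MCM ring to origins with CDT1, had 12.9 and 8.71 normalized reads in LF/LCL, compared with 1.04, 3.11 and 2.15 in SF/SCL. These values stood on 11 and 9 reads in LF/LCL, compared with 1, 4 and 2 reads in SF/SCL, and the groups did not overlap. The log2 fold change of CDC6 was 1.96 ± 0.74 (adjusted p = 0.409, limma). CDT1 overlapped between the groups, with its highest value, 59.0 normalized reads, in SF/SCL 3, and a log2 fold change of 0.25 ± 0.48. CDC45, which activates the helicase, was listed under its older symbol, CDC45L. It had 129 and 91.0 normalized reads in LF/LCL, compared with 94.6, 110.4 and 147 in SF/SCL. The groups overlapped, and the log2 fold change was -0.09 ± 0.30. This row was not counted among the 42, which were matched by the symbols given.

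PCNA, the sliding clamp of DNA polymerases and a common index of proliferation, had a log2 fold change close to 0. It had 1026 and 914 normalized reads in LF/LCL, compared with 863, 911 and 939 in SF/SCL. The groups overlapped, the log2 fold change was 0.10 ± 0.11, and its 95% interval was -0.17 to 0.37. That interval lies below the estimates for RRM2, CDC6, E2F1, TOP2A and MKI67, which all had an unadjusted limma p under 0.05. Their own standard errors were wider. The 95% intervals of CDC6, E2F1, TOP2A and MKI67 overlapped that of PCNA, with lower ends of 0.16, 0.02, 0.31 and 0.06. That of RRM2 began at 0.42. Whether PCNA differed from these genes was not tested.

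Genes that drive the step from G1 into S phase did not move together. E2F1, a transcription factor that activates replication genes, had 35.2 and 26.1 normalized reads in LF/LCL, compared with 16.6, 11.7 and 11.8 in SF/SCL, with no overlap and a log2 fold change of 1.14 ± 0.46 (adjusted p = 0.426, limma). CCNE2, an E-type cyclin that activates CDK2, had 42.2 and 49.4 normalized reads in LF/LCL, compared with 80.1, 60.6 and 52.6 in SF/SCL. It was the only one of the 42 genes with every SF/SCL library above both LF/LCL libraries. The log2 fold change of CCNE2, -0.47 ± 0.34, was the lowest of the 42 by limma (adjusted p = 0.655, limma). CCNE1, the other E-type cyclin, pointed the other way at 0.94 ± 0.66 and overlapped between the groups. CDK2 itself was at -0.06 ± 0.33.

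**Figure D2:**
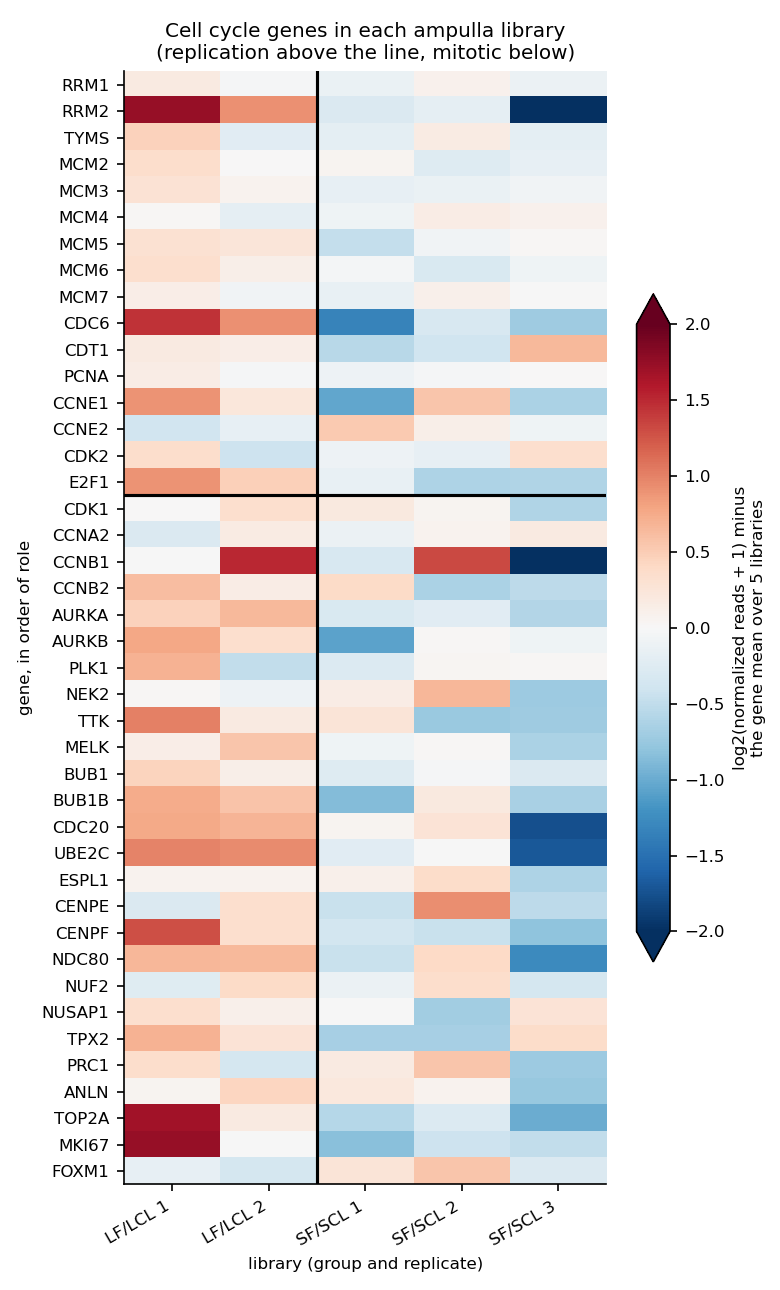
Heat map of the 42 genes (rows, in order of role, replication above the horizontal line and mitosis below it) in the 5 libraries (columns, LF/LCL left of the vertical line). Colour is log2(normalized reads + 1) minus the mean of that gene over the libraries, red above and blue below, and LF/LCL 1 holds the highest value of 27 genes while SF/SCL 3 holds the lowest of 17.

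The mitotic cyclins and their kinase all overlapped between the groups, as did 11050 of the 15815 genes tested. CDK1, the kinase that starts mitosis, had a log2 fold change of 0.29 ± 0.34, and CCNA2, the cyclin of S phase and G2, -0.11 ± 0.53. CCNB1 and CCNB2, the B-type cyclins that bind CDK1, were at 1.24 ± 1.19 and 0.63 ± 0.53. CCNB1 varied most within groups, with 10.6 and 31.9 normalized reads in LF/LCL, compared with 8.32, 27.98 and 1.07 in SF/SCL, and its standard error was the widest of the 42. For every 100 reads of CDK1 there were 11.5 and 27.5 reads of CCNB1 in LF/LCL, compared with 7.92, 29.5 and 1.79 in SF/SCL, so that 1 library of each group had a high ratio.

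The mitotic kinases had 5 of 6 fold changes above 0, against 50.8% of all genes tested. In 3 of them both LF/LCL libraries lay above every SF/SCL library, against 15% of all genes. AURKA, the Aurora kinase of spindle poles, lay at 43.4 and 49.4 normalized reads in LF/LCL, compared with 25.0, 26.4 and 20.4 in SF/SCL, with a log2 fold change of 0.93 ± 0.37 (adjusted p = 0.424, limma). AURKB, the Aurora kinase of centromeres, was at 0.93 ± 0.52, and MELK, a kinase common in dividing cells, at 0.57 ± 0.41, and neither overlapped between the groups. TTK, the kinase that starts the spindle checkpoint, was at 0.99 ± 0.72 on few reads, and it passed the filter only through LF/LCL. PLK1, the Polo kinase that acts throughout mitosis, was high only in LF/LCL 1, at 455 normalized reads against 199 in LF/LCL 2 and 231 to 289 in SF/SCL. Its log2 fold change of 0.18 ± 0.36 became -0.42 without LF/LCL 1 and 0.77 without LF/LCL 2. NEK2, a kinase of centrosome separation, was at -0.07 ± 0.51.

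Genes of the spindle checkpoint and of the start of anaphase had a median log2 fold change of 1.10 over 5 genes. This was the highest median among the mitotic roles with more than 2 genes. In 4 of the 5 both LF/LCL libraries lay above every SF/SCL library, an order that 15% of all genes tested had. UBE2C, the ubiquitin-conjugating enzyme of the anaphase-promoting complex, had 39.9 and 38.7 normalized reads in LF/LCL, compared with 16.6, 19.4 and 5.37 in SF/SCL. Its log2 fold change was 1.61 ± 0.63, the highest of the mitotic genes, with an adjusted p of 0.420 by limma and 0.347 by DESeq2. CDC20, which activates that complex, was at 1.197 ± 0.65 with 103 and 96.8 normalized reads in LF/LCL, compared with 62.4, 73.1 and 17.2 in SF/SCL. In both genes the LF/LCL libraries were close together and SF/SCL 3 was far below the others, and without SF/SCL 3 the log2 fold changes were 1.09 and 0.56. The checkpoint kinases BUB1B (1.10 ± 0.47) and BUB1 (0.47 ± 0.42) were also without overlap. ESPL1, separase, which cuts cohesin at anaphase, was at 0.13 ± 0.43.

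Of the centromere and kinetochore genes, CENPF and NDC80 had both LF/LCL libraries above every SF/SCL library, an order that 15% of all genes tested had. CENPE and NUF2 overlapped. CENPF, a large kinetochore protein made in G2 and mitosis, had 114 and 58.1 normalized reads in LF/LCL, compared with 35.4, 33.4 and 25.8 in SF/SCL. Its log2 fold change was 1.35 ± 0.42, with the smallest limma p of the 42 (adjusted p = 0.344) and an adjusted p of 0.0935 by DESeq2, and it was 0.87 without LF/LCL 1. The study had placed CENPF in a list of immune cell genes chosen on these libraries, so its direction here is not independent of that choice. NDC80 was at 1.09 ± 0.64, and its partner NUF2, with which it forms the microtubule-binding complex of the kinetochore, at 0.11 ± 0.33. CENPE, a kinesin of kinetochores, was at 0.04 ± 0.64.

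The spindle and cytokinesis genes all overlapped between the groups, as did 11050 of the 15815 genes tested. TPX2, which activates AURKA on the spindle, was at 0.80 ± 0.40 with 162 and 121 normalized reads in LF/LCL, compared with 62.4, 63.0 and 129 in SF/SCL. ANLN, anillin of the cleavage furrow, was at 0.40 ± 0.41, NUSAP1, a microtubule-bundling protein, at 0.36 ± 0.42, and PRC1, which bundles the midzone, at -0.01 ± 0.47.

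TOP2A and MKI67 were high in LF/LCL 1 above all. TOP2A, topoisomerase IIα, which untangles chromosomes before they separate, had 251 and 88.1 normalized reads in LF/LCL, compared with 52.0, 64.5 and 38.6 in SF/SCL. MKI67, the Ki-67 antigen, had 136 and 39.7 normalized reads in LF/LCL, compared with 21.8, 29.5 and 27.9 in SF/SCL. In both genes LF/LCL 2 was above every SF/SCL library but closer to them than to LF/LCL 1. The log2 fold change of TOP2A was 1.54 ± 0.50 (adjusted p = 0.359 by limma and 0.0608 by DESeq2) and was 0.79 without LF/LCL 1. That of MKI67 was 1.46 ± 0.58 (adjusted p = 0.420 by limma and 0.142 by DESeq2) and was 0.58 without LF/LCL 1 and 2.33 without LF/LCL 2. For every 100 reads of PCNA there were 13.3 and 4.34 reads of MKI67 in LF/LCL, compared with 2.53, 3.24 and 2.97 in SF/SCL.

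FOXM1, the transcription factor that switches on many mitotic genes, was 1 of the 4 mitotic genes with a fold change below 0. It had 22.3 and 19.4 normalized reads in LF/LCL, compared with 30.2, 37.3 and 20.4 in SF/SCL. The groups overlapped, and the log2 fold change was -0.44 ± 0.45, with a 95% interval of -1.52 to 0.65. The values thus do not separate a difference in either direction from none. That interval also held the median of the mitotic genes, 0.60.

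**Figure D3:**
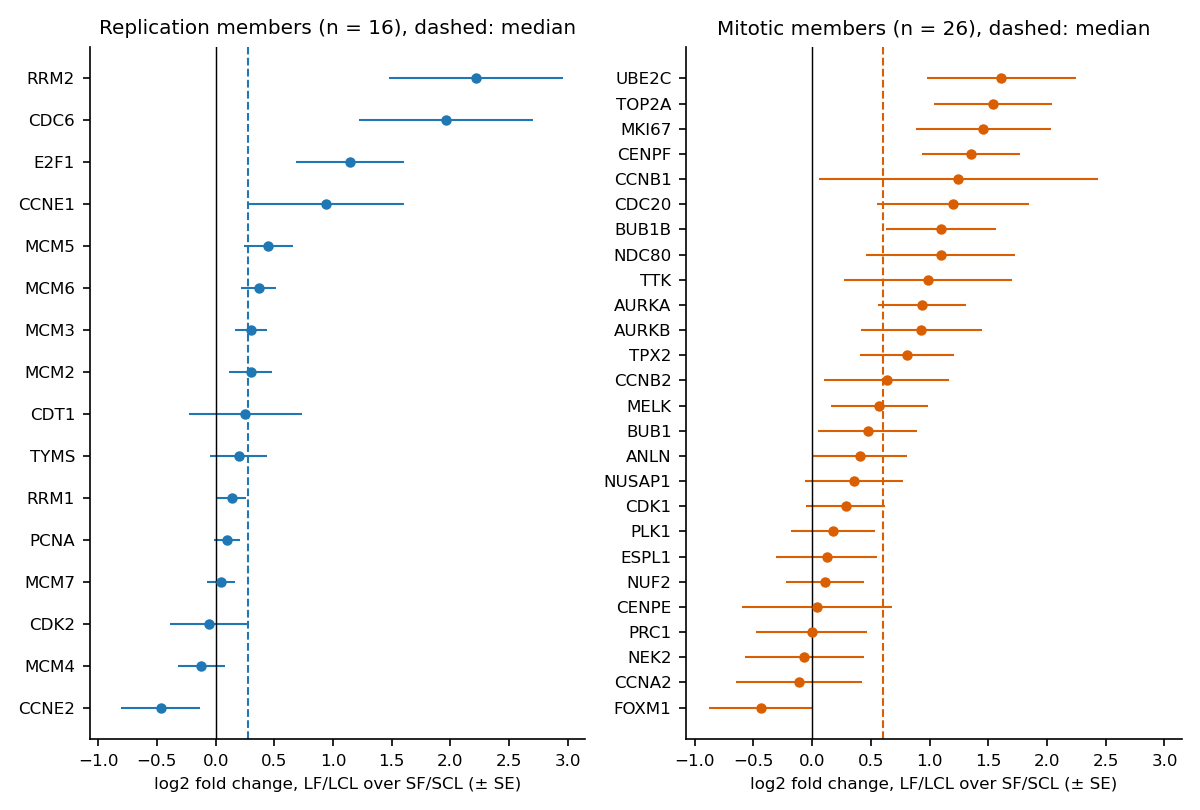
Log2 fold change, LF/LCL over SF/SCL (horizontal axis, points ± SE), of the 16 replication genes (left) and 26 mitotic genes (right) in order of size, with a dashed line at the median of each class (0.28 and 0.60). No gene passed the test, 3 replication and 4 mitotic genes lie below 0, and the error bars of mitotic genes are wider.

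Set against each other, the replication genes had a median log2 fold change of 0.28 and the mitotic genes of 0.60, beside 0.01 for all genes tested, and the difference of the class medians was 0.33. That difference was 0.16 without SF/SCL 3, and also 0.16 with class means in place of medians. The direction was alike, with a fold change above 0 in 13 of 16 and 22 of 26 genes. Groups did not overlap, with LF/LCL above, in 6 replication genes and in 11 mitotic genes, where 15% of all genes tested had that order. The classes also differed in the number of reads behind their genes. Replication genes had a median level of 202 normalized reads and a median standard error of 0.23, and mitotic genes had 35.2 and 0.47. Among the 29 genes with a mean under 100 normalized reads the median log2 fold change was 1.04 in 6 replication genes and 0.63 in 23 mitotic genes, so that the order of the classes was the reverse. Among the 13 genes at 100 or more it was 0.17 in 10 replication genes and 0.18 in 3 mitotic genes. Over both classes it was 0.93 under 100 and 0.18 at or above it, while over all genes tested it was 0.08 and -0.003. CDC6, of the 6 replication genes under 100, and TTK, of the 23 mitotic genes, passed the filter only through LF/LCL. With only genes of a mean over 15, which dropped both, the class medians were 0.25 for replication and 0.60 for mitosis. No test was made between the classes, because the genes of a class are not replicates.

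**Figure D4:**
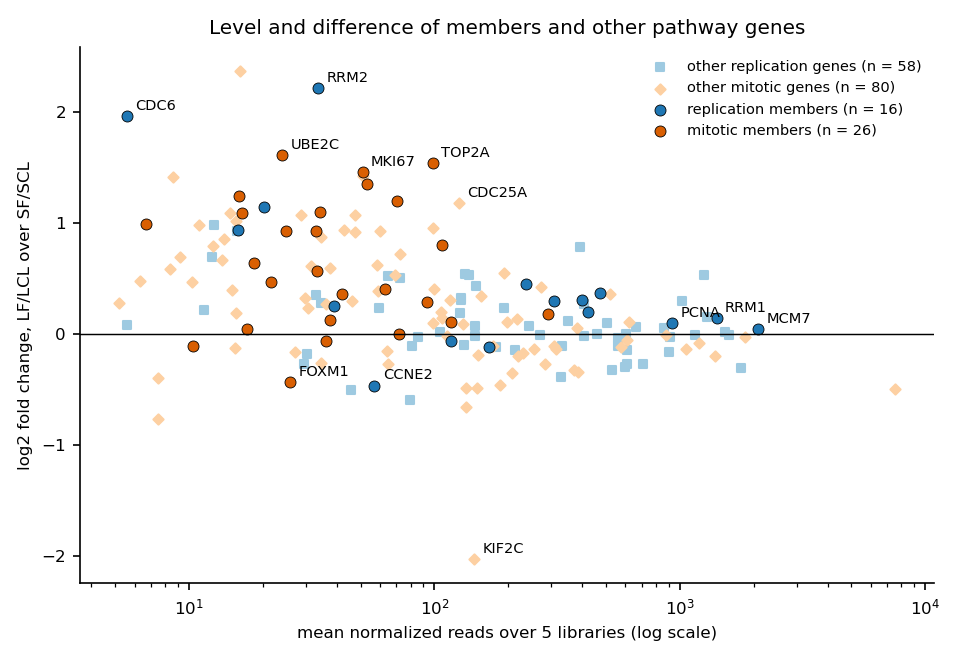
Mean normalized reads over the 5 libraries (horizontal axis, log scale) and log2 fold change, LF/LCL over SF/SCL (vertical axis), of the replication and mitotic members (large points) and of other replication and mitotic genes (small points). Members with under 100 reads reach 2.22, and those with 100 or more lie between -0.12 and 0.80. Of the other mitotic genes, SPAG5 (not labelled) is highest at 2.37 and KIF2C lowest at -2.03.

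Replication genes stood out in LF/LCL 1 alone, while mitotic genes were above their mean in both LF/LCL libraries and below it in SF/SCL 1 and SF/SCL 3. The median deviation of the replication genes from their mean over libraries, on the log2 scale, was 0.32 and 0.04 in LF/LCL, compared with -0.15, -0.10 and -0.09 in SF/SCL. For the mitotic genes it was 0.46 and 0.30 in LF/LCL, compared with -0.17, 0.05 and -0.61 in SF/SCL. The lowest value of either class was that of the mitotic genes in SF/SCL 3. The summed reads of the mitotic genes per 100 summed reads of replication genes were 26.2 and 22.6 in LF/LCL. In SF/SCL they were 19.0, 20.5 and 15.6, without overlap. The mitotic minus the replication median deviation did overlap, at 0.14 and 0.26 in LF/LCL, compared with -0.03, 0.15 and -0.52 in SF/SCL. Of the 42 genes, 27 had their highest value in LF/LCL 1 and 6 in LF/LCL 2, and 17 had their lowest in SF/SCL 3, of which 16 were mitotic. Among all genes tested 21.9% were highest in LF/LCL 1 and 24.3% lowest in SF/SCL 3.

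Among other genes of the same pathways, the share with a fold change above 0 was 51.7% for replication and 60% for mitosis, against the 50.8% of all genes. Of 58 other replication genes tested, 30 had a fold change above 0, with a median of 0.02 on the log2 scale, and 0 passed by limma. POLE3, an accessory subunit of DNA polymerase ε, had 1591 and 1473 normalized reads in LF/LCL, compared with 1021, 1089.6 and 1076 in SF/SCL, with a log2 fold change of 0.53 ± 0.10. Its adjusted p was 0.222 by limma and 0.00377 by DESeq2. TK1, thymidine kinase, which salvages thymidine for DNA synthesis, was at 0.79 ± 0.25 (adjusted p = 0.353, limma). At an unadjusted p under 0.05 there were 3 of the 58, all higher in LF/LCL, a share near the 5.64% of all genes in that direction.

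Of 97 other mitotic genes, 87 had a row and 80 were tested, of which 48 had a fold change above 0, with a median of 0.20 on the log2 scale, and 0 passed by limma. Their median was 0.59 in the 42 with a mean under 100 normalized reads, where 35 were above 0, and -0.11 in the 38 at 100 or more. CDC25A, a phosphatase that activates cyclin-dependent kinases, had 167 and 212 normalized reads in LF/LCL, compared with 94.6, 77.7 and 76.2 in SF/SCL, which gave a log2 fold change of 1.18 ± 0.25 (adjusted p = 0.248 by limma and 0.00473 by DESeq2). KIF2C, a kinesin that takes microtubules apart at centromeres, went the other way, with 32.8 and 67.8 normalized reads in LF/LCL, compared with 218, 119.7 and 288 in SF/SCL. Its log2 fold change was -2.03 ± 0.48 (adjusted p = 0.281 by limma and 0.00595 by DESeq2), the lowest of the list. The highest was that of SPAG5, 2.37 ± 0.63, on a mean of 16.1 normalized reads. At an unadjusted p under 0.05 there were 5 higher and 4 lower genes of this list, shares near the 5.64% and 5.86% of all genes.

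Regulators outside S phase and mitosis showed no common direction, and those with the smallest p were mostly higher in SF/SCL. Of 27 G1 cyclins, kinases and pocket proteins tested, 12 had a fold change above 0 (median -0.05), and of 20 CDK inhibitors and genes of cell cycle exit, 10 did (median 0.01). MYC, a transcription factor that promotes growth and entry into the cycle, had 511 and 436 normalized reads in LF/LCL, compared with 733, 999 and 1510.0 in SF/SCL, which gave a log2 fold change of -1.13 ± 0.30 (adjusted p = 0.306 by limma and 0.0181 by DESeq2). CCND2, a D-type cyclin of G1, was at -0.51 ± 0.20. CDKN2C, an inhibitor of the kinases that D-type cyclins bind, was at -0.64 ± 0.17, and GADD45G, a growth arrest gene induced by stress, at -1.01 ± 0.29. The 4 genes had every SF/SCL library above both LF/LCL libraries, an order that 15.1% of all genes tested had. They were named for the smallest p of their lists, which favours genes without overlap, and none passed by limma.

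Of the anaphase-promoting complex 8 of 15 genes had a fold change above 0 (median 0.03), of cohesin 3 of 11 (median -0.04), and of the genes of centriole amplification, by which ciliated cells build many centrioles without dividing, 7 of 13 (median 0.07). CDC26 and ANAPC4, both subunits of the anaphase-promoting complex, were at -0.67 ± 0.16 and 0.31 ± 0.10. WAPAL, which releases cohesin from chromosomes, was at -0.25 ± 0.10, and STAG1, a cohesin subunit, at -0.15 ± 0.10. TP73, a transcription factor of multiciliated cells, was at -0.73 ± 0.18 and CCNA1, an A-type cyclin, at 0.32 ± 0.13. By limma 0 of all 224 pathway genes outside the 42 were called, with 12 higher and 12 lower at an unadjusted p under 0.05, and edgeR also called 0. DESeq2 called 6 of the 224, a share near the 2.89% of all genes that it called. Of the 6, POLE3 and CDC25A were higher in LF/LCL and KIF2C, MYC, CDC26 and TP73 were lower.

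Summed markers of smooth muscle, T and NK lymphocytes, ciliated cells and mesothelium separated the groups, and those of the other cell types overlapped. Of the 4 mesothelial markers tested, however, 3 overlapped, among them WT1, with 6793 and 6820 against 7240, 6589 and 7104. The marker without overlap was KRT19, with 3516 and 3166 against 5805, 5066 and 6749. All 11 smooth muscle markers tested were higher in LF/LCL, with a median log2 fold change of 1.47, and their summed normalized reads were 126702 and 65504 in LF/LCL, compared with 40882, 43586 and 17523 in SF/SCL. The highest sum was thus in LF/LCL 1 and the lowest in SF/SCL 3, as for many mitotic genes. All 16 rows of T and NK lymphocyte markers tested were higher in LF/LCL, with a median of 0.88 and sums of 2147 and 2949 against 1167, 1376 and 1291. All 16 ciliated cell markers tested were lower, with a median of -0.47 and sums of 47664 and 55912 against 69561, 74122 and 70875. Stromal fibroblast markers were higher in 8 of 9, with sums of 86446 and 34931 against 39909, 22487 and 49364. Secretory cell markers were higher in 5 of 8 (median 0.16), macrophage and myeloid markers in 6 of 9 (0.25), endothelial markers in 4 of 7 (0.10), B and plasma cell markers in 4 of 5 (0.82), and mesothelial markers in 1 of 4 (-0.42). Of blood markers only 2 rows of HBA were tested, and ALAS2, like the B cell factor PAX5, was at 0 in every library. The part of these cell types in the fold changes of the cell cycle genes was not tested.

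**Figure D5:**
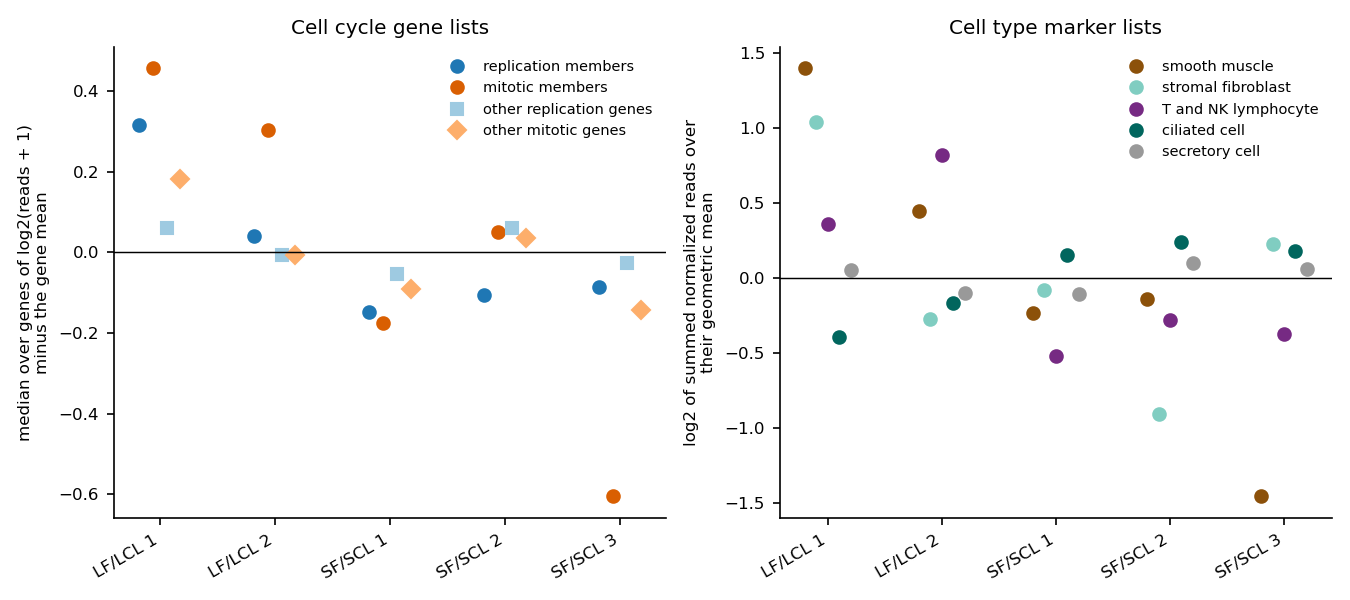
Left, for each library (horizontal axis), the median over genes of log2(normalized reads + 1) minus the gene mean, for replication and mitotic members and the other genes of both pathways. Right, log2 of the summed normalized reads of 5 cell type marker lists over their geometric mean across libraries. Mitotic members and smooth muscle markers are both highest in LF/LCL 1 and lowest in SF/SCL 3, T and NK lymphocyte markers are highest in LF/LCL 2, and ciliated cell markers are lowest in LF/LCL 1.

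The counts over the 42 genes rested in part on single libraries. Leaving out each library in turn left 32 to 37 genes with a fold change above 0, of 41 or 42 tested, and 0 called by limma each time. The genes at an unadjusted p under 0.05 fell to 0 without LF/LCL 1, to 5 without LF/LCL 2, to 3 without SF/SCL 1 or SF/SCL 3, and to 6 without SF/SCL 2. RRM2 and CENPF were among them in all 4 of the fits that kept LF/LCL 1. Leaving out a library of LF/LCL left 1 there, which was assumed to vary like the others. The median log2 fold change of the replication genes was 0.12 without LF/LCL 1 and 0.41 without LF/LCL 2.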

How the data were processed

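RNA of the ampulla was sequenced in 5 libraries, 2 of LF/LCL and 3 of SF/SCL, grouped by their labels. The authors prepared polyA libraries, cleaned read pairs with seqyClean, aligned them with TopHat2 2.0.8 and Bowtie2 2.1.0 to the masked UMD cattle assembly, counted reads mapped uniquely to Ensembl genes with HTSeq 0.5.4p2, and divided counts by 1 DESeq 1.12.1 size factor per library. Whether counting used strand was not stated, so overlapping or antisense genes and near copies are uncertain. The deposited values are thus a normalized signal. Dividing by the smallest step of each library gave whole reads, within 0.01 of a read, for 100% of values, 13418278 to 19592174 reads per library. This depth covers counting error only and limits genes with few reads.

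Values were tested with limma 3.58.1 (R 4.3.3) on log2(value + 1), with trend and robust on, no covariates, two-sided, for the 15815 genes with a mean over 5, and p-values were adjusted by Benjamini-Hochberg over all of them with a threshold of 0.05. edgeR 4.0.16 (quasi-likelihood, TMM), DESeq2 1.42.0 and limma-voom on the recovered reads, other scalings, pseudocounts and filters, and each replicate left out were alternatives. The fits were tested on simulated data. The genes, classes and pathway and marker lists were chosen with earlier results of these data known. Values in every library were named for the 3 smallest p in each class, the lowest and highest fold change, MKI67, PCNA, TOP2A and FOXM1, and the 2 smallest p in each pathway list. Values of other members (RRM1, TYMS, MCM6, CDC20, CCNB1, AURKA, PLK1, TPX2) were printed after they had been seen, as were the read ratios. No sequence and no gene length of the build was used, so levels of different genes are not corrected for length.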

Additional observations from a re-analysis of the deposited data

How the results depend on the processing

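By limma, 0 of the 42 genes passed under every alternative run, also by edgeR, DESeq2 and limma-voom and at an adjusted p under 0.1 by limma, and 32 to 37 had a fold change above 0. The median log2 fold change stayed between 0.35 and 0.48 over the 42, between 0.46 and 0.70 for mitotic genes, and the mitotic minus replication difference between 0.16, without SF/SCL 3 or with means in place of medians, and 0.45. The alternatives for the unadjusted counts, the counts without overlap and the medians of other pathway genes were chosen after seeing the data. DESeq2 called 6 other pathway genes where limma called 0. The DESeq2 adjusted p was under 0.1 for TOP2A (0.0608) and CENPF (0.0935), a threshold at which limma called 0 of the 42. The median of the other replication genes turned to -0.018 with library size scaling and to -0.0050 with only genes of a mean over 15. That filter, which dropped CDC6 among others, left 5 of the 42 at an unadjusted p under 0.05, and the cause was not tested. Leaving out each replicate gave 0 to 6 such genes, a replication median of 0.12 to 0.41, a median of the other mitotic genes of 0.082 to 0.35, and 20 to 29 genes with every LF/LCL library above every SF/SCL library, since fewer libraries have to be in order. The lowest values of the first 3 came without LF/LCL 1, and the highest of the last without LF/LCL 2. Leaving out a library turned the sign of 2 to 4 of the 42 genes, mostly those near 0 such as PRC1 and CENPE. CDC6 had no value without a library of LF/LCL, where its mean was too low to be tested. Few libraries and few reads, such as 1 to 4 reads of CDC6 per SF/SCL library, limit what these data can show. No paired analysis was possible because replicate numbers here follow the order of deposit and pair no cows.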
